A study of Mus musculus with 6 samples.

Results

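Kinesins are motor proteins that use ATP to walk along microtubules or to take them apart. The family's genes were described here in mouse prostate cells that lack p53, with the Rb gene deleted or left in place. Members were all genes whose symbol is Kif or Kifc followed by a digit. They numbered 41 genes with 58 probes, of 20832 named genes with 27427 named probes on the array. The gene table held 46 such symbols, and the other 5 (Kif14, Kif16bos, Kif22-ps, Kif28 and Kifc5c-ps) had no named probe here and were not analysed. Of the 41 genes, 34 gave a signal that could be tested. These were 11 mitotic kinesins, 16 transport kinesins and 7 others.

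The 6 samples were primary prostate cell cultures, each read on its own Agilent array of 1 colour. The 3 Rb deleted cultures had the genotype p53-/- Rb∆f/∆f, made from floxed cells by an adenovirus that carries Cre recombinase. The 3 Rb intact cultures had the genotype p53-/- Rbf/f and received an adenovirus with lacZ. Infection ran overnight and RNA was taken 48 hours after it. All cultures lacked p53 and grew in Prostacult medium with bFGF and bEGF. The series design calls them independent experiments, and neither the age of the mice nor any pooling of animals is given. Cre virus and Rb loss went together in every culture and cannot be told apart. In such bulk samples, fewer cells of a type and less RNA per cell cannot be told apart either.

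In dividing cells, mitotic kinesins build the spindle, move chromosomes on it and organise the midzone where the cell will split. Transport kinesins carry vesicles, mitochondria, endosomes and ciliary components along microtubules, mostly outside division. Many mitotic genes are transcribed late in the cell cycle through promoters with a CHR element (cell cycle genes homology region) and CCAAT boxes. The CHR element is bound by MuvB complexes, which repress in resting cells together with the Rb relatives p107 and p130 and activate later with B-Myb and FoxM1. Rb itself restrains E2F factors, which drive genes of S phase and some of mitosis.

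The promoters below are shown because the CHR element was found in most promoters of the mitotic kinesins. They are the 6 mitotic kinesins with the smallest p that held a CHR match, followed by Kif5c, a transport kinesin. Each run is 150 bases of the gene's strand, 120 before the gene start and 30 from it, from RefSeq's promoters on build GRCm38.p6. Capitals mark matches to TTTGAA or TTCGAA (CHR) and to CCAAT on either strand. Positions below count from the start base as 0 and give the first base of a match. Kif18b lies at chr11:102925095-102925244 on the minus strand and holds CCAAT boxes 53 and 30 bases before the start and a CHR match 3 bases after it. Kif2c lies at chr4:117178743-117178892 on the minus strand, with its CHR match 103 bases before the start, farther from it than those in the other 5 mitotic windows shown. Kif20b lies at chr19:34922238-34922387 on the plus strand, with CHR matches 7 and 13 bases after the start. Kif22 lies at chr7:127042391-127042540 on the minus strand, with matches 54 (CCAAT) and 17 (CHR) bases before the start. Kif11 lies at chr19:37376262-37376411 on the plus strand, with matches 45 (CCAAT) and 19 (CHR) bases before the start. In Kif22 and Kif11 the CHR match thus lies between the CCAAT box and the start. Kif23 lies at chr9:61946770-61946919 on the minus strand, with a CCAAT box 7 bases before the start and a CHR match 2 bases after it. Kif5c lies at chr2:49619166-49619315 on the plus strand, and neither motif's letters are in its window.
Kif18b: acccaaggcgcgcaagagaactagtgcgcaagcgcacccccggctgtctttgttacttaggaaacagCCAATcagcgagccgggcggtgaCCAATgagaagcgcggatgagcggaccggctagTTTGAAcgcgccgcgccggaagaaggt
Kif2c: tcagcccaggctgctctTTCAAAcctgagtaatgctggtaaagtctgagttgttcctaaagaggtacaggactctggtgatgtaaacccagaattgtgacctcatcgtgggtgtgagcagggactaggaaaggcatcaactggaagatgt
Kif20b: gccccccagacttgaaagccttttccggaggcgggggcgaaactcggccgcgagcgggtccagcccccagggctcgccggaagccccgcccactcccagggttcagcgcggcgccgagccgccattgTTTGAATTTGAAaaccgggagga
Kif22: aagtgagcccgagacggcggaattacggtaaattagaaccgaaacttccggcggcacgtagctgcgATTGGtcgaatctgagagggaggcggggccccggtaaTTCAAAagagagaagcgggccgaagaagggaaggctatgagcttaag
Kif11: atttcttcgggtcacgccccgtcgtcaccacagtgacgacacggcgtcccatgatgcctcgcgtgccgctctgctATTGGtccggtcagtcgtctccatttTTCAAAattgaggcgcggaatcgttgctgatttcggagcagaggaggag
Kif23: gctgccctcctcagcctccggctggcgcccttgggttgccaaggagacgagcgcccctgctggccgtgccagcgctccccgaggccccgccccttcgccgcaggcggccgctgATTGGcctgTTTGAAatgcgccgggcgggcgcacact
Kif5c: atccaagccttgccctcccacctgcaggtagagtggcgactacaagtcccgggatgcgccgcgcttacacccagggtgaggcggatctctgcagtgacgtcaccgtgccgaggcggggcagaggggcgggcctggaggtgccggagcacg

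Of the 11 mitotic kinesins with a probe, 10 had a promoter in the RefSeq table, and 9 of these held a CHR match within the 300 bases from 250 before to 50 after the start. For 8 of them (Kif11, Kif15, Kif18b, Kif20b, Kif22, Kif23, Kif4 and Kifc1) a match lay within the 60 bases from 30 before the start to 30 after it. The CCAAT box was present in 6, and an E2F octamer (TTTCCCGC, TTTGGCGC, TTTCGCGC or TTTGCCGC, either strand) in 2, Kif15 and Kif18a. Among 11 transport kinesins with a promoter in the table, 1 (Kif1a, 44 bases before the start) held a CHR match, 3 a CCAAT box and 0 an E2F octamer. Among 11 other kinesins with a promoter, 4 held a CHR match (Kif24, Kif26b, Kif27 and Kifc5b), and in Kif24 and Kif26b, whose levels differed in opposite directions, it lay within those 60 bases. The CCAAT box was present in 6 of them. Of 32851 promoters in the whole table, 19.2% held a CHR match, 37.4% a CCAAT box and 2.26% an E2F octamer. These shares are of promoters, while the kinesin counts are of genes, with 13 promoters each in the transport and other groups. Within the same 60 bases, 3.13% of all promoters had a CHR match and 8.08% a CCAAT box. No match to 1 of the 3 motifs overlapped a match to another in a kinesin promoter. These are matches of letters in a window, given as a description without a test.

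**Figure D1:**
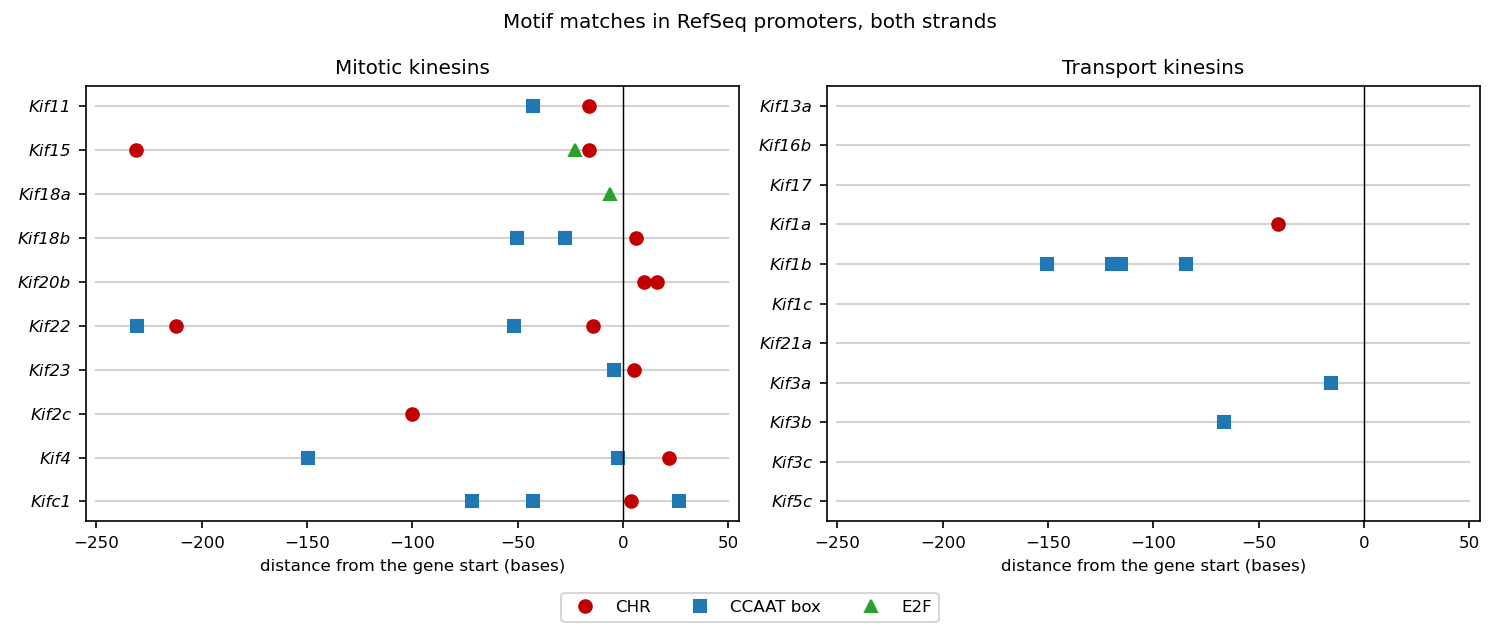
Positions of CHR, CCAAT and E2F matches (symbols by motif) along each kinesin promoter, in bases from the gene start (x axis), with mitotic and transport kinesins in separate groups (genes down the y axis). CHR matches lie near the start in 8 of 10 mitotic kinesins and in 0 of 11 transport kinesins, where Kif1a has one 44 bases before it. The 2 promoters of Kif1a share a line, as do the 2 of Kif1b.

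Levels are log2 processed intensity relative to the 75th percentile of the same array, so a value of 0 is that percentile and levels of different genes are not compared. A difference is the mean log2 level in Rb deleted minus that in Rb intact cultures, with the SE of a limma fit on all 13731 tested genes. A gene is said to have risen or fallen where the Benjamini-Hochberg adjusted p over all those genes was under 0.05. Over all genes, 20.4% passed this threshold, 9.66% higher and 10.8% lower in Rb deleted cells. The targeted gene Rb1 read -3.11, -3.11 and -3.07 in Rb deleted cultures, against -1.15, -1.12 and -1.16 in Rb intact cultures. That is a fall by 1.96 ± 0.05 (SE, limma adjusted p = 8.19e-05), although where its probe lies relative to the deleted part is not known here. On single arrays 59.0% to 63.3% of probes exceeded background clearly, and no kinesin probe was saturated. The array Rb intact 1 stood apart from the other 5, with an array weight of 0.101 where the others had 0.846 to 2.12. Results are therefore also given without it. One slide carried every Rb intact array together with Rb deleted 1, and the other carried Rb deleted 2 and 3.

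Of the markers of prostate epithelium, the basal genes Itga6 and Trp63 and the luminal gene Krt18 were measured in every culture. Krt5, Krt15 and Krt17 (basal) and Pbsn (luminal) were not well above background on all arrays of either group. Stromal genes such as Vim, at 6.20, 6.10 and 6.01 in Rb deleted and 6.46, 6.22 and 6.27 in Rb intact cultures, were well above background on every array. The cultures thus held signal of epithelial and stromal markers together, with several defining epithelial markers not measured. Some markers also moved with Rb status. Itga6 fell by 0.58 ± 0.08 and Trp63 by 0.26 ± 0.07 (SE, limma adjusted p = 0.00501 and 0.0476), and Acta2, which encodes actin of smooth muscle, fell by 1.35 ± 0.14 (SE, limma adjusted p = 0.00218). Means were higher in Rb deleted cells for 1 of 3 tested basal genes (Krt14, by 0.07) and 1 of 4 luminal genes (Krt8, by 0.42). Neither passed, but the groups did not overlap for Krt8 (limma adjusted p = 0.0679). The summed signal of the 3 tested basal markers of 6, relative to the 75th percentile, ranged from 20.8 to 21.4 in Rb deleted and from 28.7 to 34.4 in Rb intact cultures. That of all 6 stromal markers ranged from 217.2 to 241.7 in Rb deleted and from 245.8 to 257.2 in Rb intact cultures. Both sums were lower in every Rb deleted culture, and the basal sum was nearly all Itga6 (19.4 to 19.9 in Rb deleted and 27.0 to 32.6 in Rb intact cultures). Acta2 kept its call with slide as a block (adjusted p = 0.0411), while Itga6 (0.0754) and Trp63 (0.409) lost theirs in limma. Their part in the kinesin differences below was not tested.

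Mitotic kinesins were mostly a little higher in Rb deleted cells, and 2 of 11 tested passed the threshold, Kif18b and Kif2c, both upward (18.2% of the list, against 20.4% of all genes). None fell in limma, also at an unadjusted p under 0.05. Mean levels were higher in Rb deleted cells for 10 of 11, with a median difference of 0.09, where the median of all genes was 0.01. For 4 genes (Kif18b, Kif2c, Kif20b and Kif22) every Rb deleted array read above every Rb intact array, against 23.7% of all genes. Without Rb intact 1, 7 of 11 rose and the median difference was 0.24, while the share of all genes that rose was 19.1%. With slide as a block, 0 of 11 passed in limma, 1 had an unadjusted p under 0.05, and the median was 0.18. In that fit 1.46% of all genes rose, and 2742 of 13731 genes had an unadjusted p under 0.05.

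The kinesins that control the plus ends of microtubules held both genes that rose. Kif18b, which shortens astral microtubules at their plus ends together with Kif2c, read -0.91, -0.88 and -0.91 in Rb deleted cultures, against -1.32, -1.29 and -1.34 in Rb intact cultures. The groups were far apart beside their spread, and Kif18b rose 1.33-fold, by 0.42 ± 0.05 (SE, limma adjusted p = 0.00282). With slide as a block the difference was 0.41 with an adjusted p of 0.0544. Kif2c, the microtubule depolymerase MCAK that corrects faulty kinetochore attachments, read -1.01, -0.99 and -0.92 in Rb deleted cultures, against -1.13, -1.22 and -1.22 in Rb intact cultures. The lowest Rb deleted value lay above the highest Rb intact value by a narrow margin. Kif2c rose 1.16-fold, by 0.22 ± 0.06 (SE, adjusted p = 0.0425, limma), and its call was lost when any array other than Rb intact 1 was left out. Its second probe, A_66_P125209, gave a larger difference of 0.44 ± 0.05 (SE, limma adjusted p = 0.00309 with every probe tested on its own, when 19.1% of probes passed). Kif18a, which damps chromosome movements so that they align, read -1.04, -1.10 and -1.04 in Rb deleted cultures, against -1.04, -1.37 and -1.48 in Rb intact cultures. Only Rb intact 1 reached the Rb deleted values. The difference was 0.23 ± 0.11 (SE, limma adjusted p = 0.199), and without Rb intact 1 it was 0.36 with an adjusted p of 0.00591.

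The chromokinesins, which ride on chromosome arms, did not pass. Kif22, which pushes chromosome arms away from the poles, read 3.15, 3.10 and 3.09 in Rb deleted cultures, against 2.35, 2.86 and 2.89 in Rb intact cultures. The groups did not overlap, but Rb intact 1 lay well below its replicates. The difference was 0.41 ± 0.15 (SE, limma adjusted p = 0.1). Without Rb intact 1 it was smaller, 0.24, and passed with an adjusted p of 0.00906. Kif4, which helps compact chromosomes and order the midzone, read -0.32, -0.35 and -0.25 in Rb deleted cultures, against -0.09, -0.49 and -0.60 in Rb intact cultures. Here Rb intact 1 was the highest array of all 6. The difference was 0.08 ± 0.13 (SE, adjusted p = 0.685, limma), and 0.24 without Rb intact 1 (adjusted p = 0.0247).

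Kinesins that set the shape of the spindle showed no call. Kif11 (Eg5), the motor that pushes the poles apart, read -1.48, -1.56 and -1.40 in Rb deleted cultures, against -1.50, -1.56 and -1.63 in Rb intact cultures. The groups overlapped, with a fold of 1.06 and a 95% interval from 0.952 to 1.18 (limma adjusted p = 0.386). Kif15, which can stand in for Kif11, read -2.55, -2.60 and -2.44 in Rb deleted cultures, against -2.74, -2.46 and -2.60 in Rb intact cultures. Its fold of 1.05 had an interval from 0.906 to 1.22 (limma adjusted p = 0.603). Kifc1, a minus-end motor that focuses the poles, was the single mitotic kinesin with a lower mean in Rb deleted cells. It read 0.76, 0.50 and 0.29 in Rb deleted cultures, against 0.68, 0.63 and 0.61 in Rb intact cultures, so that its Rb deleted values lay on both sides of the others. The difference was -0.12 ± 0.12 (SE, limma adjusted p = 0.493).

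Motors of the midzone and of cytokinesis were slightly higher on average. Kif20b, which acts in the last step of abscission, read 1.62, 1.53 and 1.58 in Rb deleted cultures, against 1.48, 1.31 and 1.29 in Rb intact cultures. The groups did not overlap, and the difference of 0.21 ± 0.07 (SE, limma adjusted p = 0.0812) did not pass. It was 0.27 without Rb intact 1, with an adjusted p of 0.00864. Kif20a, which brings the chromosomal passenger complex to the midzone, read 2.18, 2.10 and 2.13 in Rb deleted cultures, against 2.19, 2.01 and 1.93 in Rb intact cultures. Its groups overlapped through Rb intact 1 alone. The fold was 1.07 with an interval from 0.936 to 1.22 (limma adjusted p = 0.427), and without Rb intact 1 the difference was 0.17 (adjusted p = 0.0439). Kif23, the motor subunit of centralspindlin, read 0.62, 0.45 and 0.48 in Rb deleted cultures, against 0.39, 0.52 and 0.38 in Rb intact cultures. The groups overlapped, and the fold of 1.06 had an interval from 0.939 to 1.19 (limma adjusted p = 0.445).

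**Figure D2:**
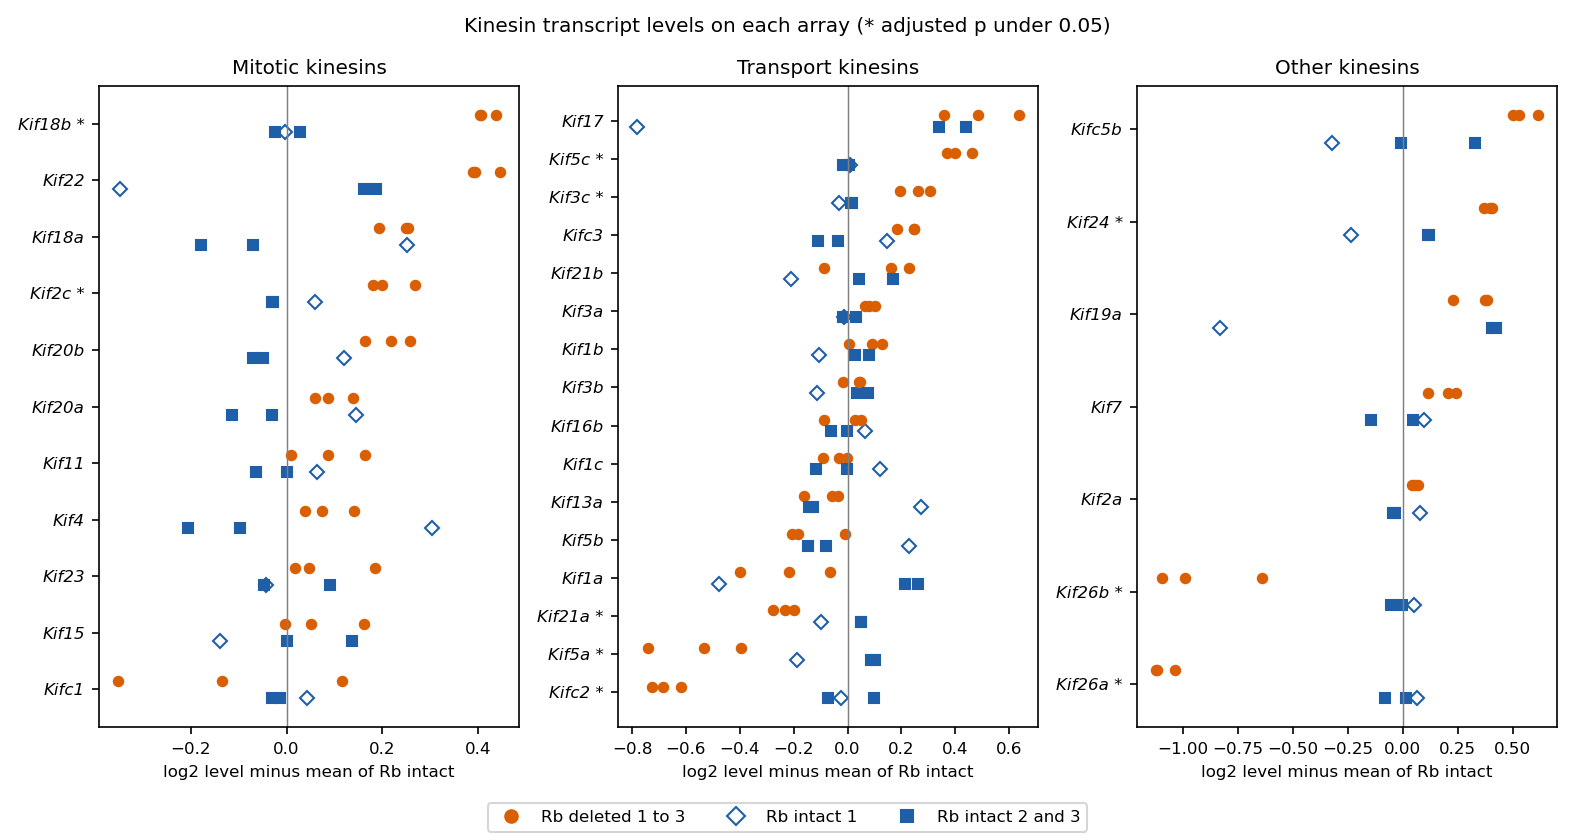
Level of each tested kinesin on each array minus its Rb intact mean (x axis, log2), with genes down the y axis in mitotic, transport and other groups. Orange circles are Rb deleted arrays, the open diamond is Rb intact 1, blue squares are Rb intact 2 and 3, and an asterisk marks an adjusted p under 0.05, so that the 10 called genes can be seen with their spread.

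How far the mitotic result leaned on Rb intact 1 was seen gene by gene. The 7 genes that rose without it were Kif18a, Kif18b, Kif20a, Kif20b, Kif22, Kif2c and Kif4, and the largest difference among them was 0.41, that of Kif18b. The array sat high for some mitotic genes (Kif18a, Kif20a, Kif4) and low for another (Kif22). Per array, the median of the 11 genes relative to their Rb intact means was 0.18, 0.06 and 0.16 in Rb deleted cultures, against 0.06, -0.01 and -0.05 in Rb intact cultures. Rb deleted 2 and Rb intact 1 thus had equal medians at this precision.

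**Figure D3:**
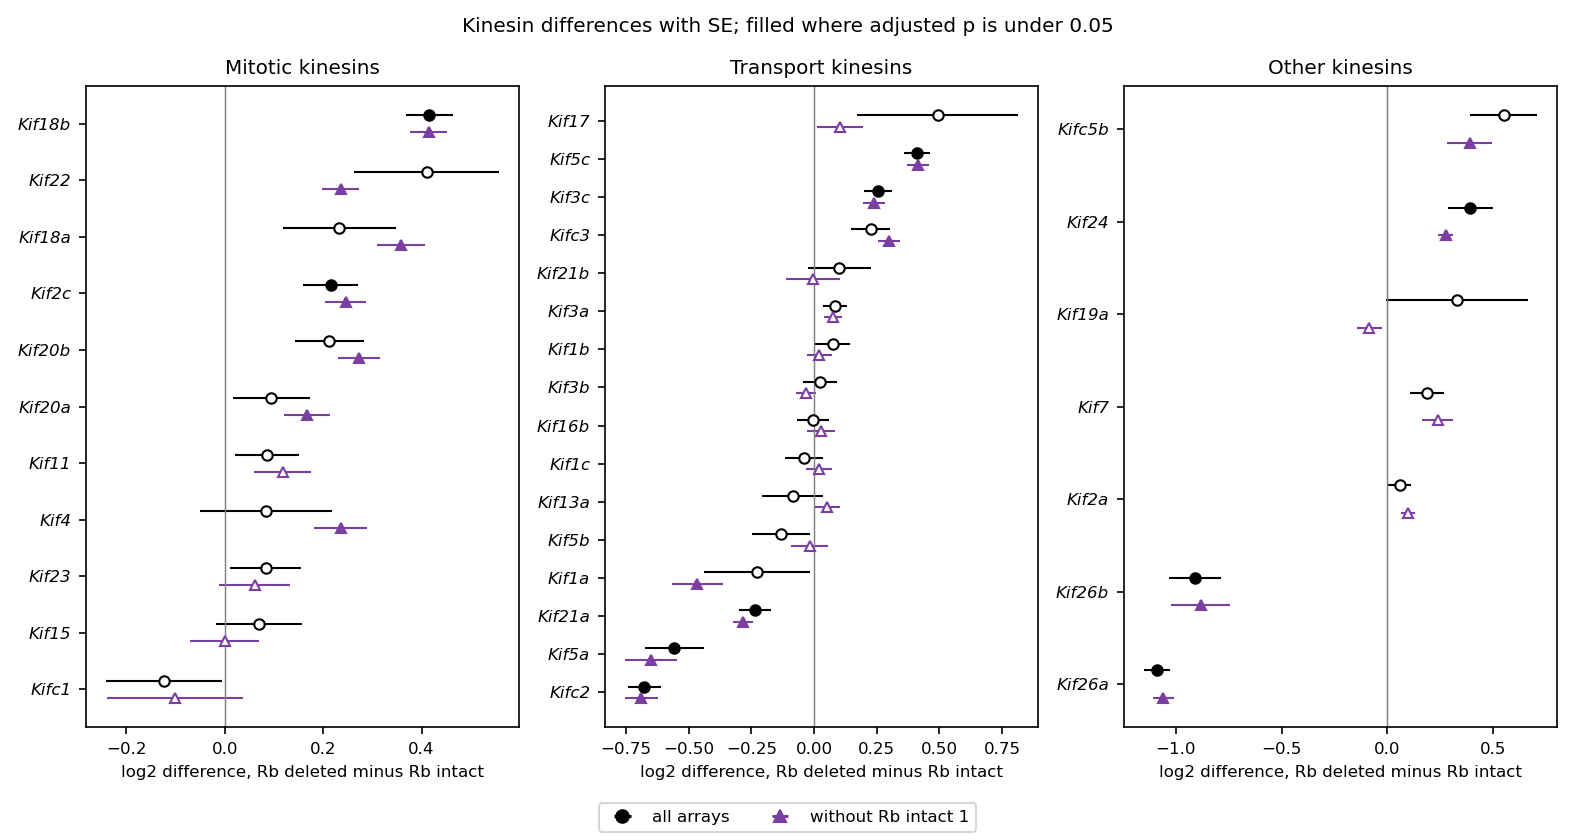
Difference, Rb deleted minus Rb intact (x axis, log2, with SE bars), of each tested mitotic, transport and other kinesin from all 6 arrays and without Rb intact 1 (genes down the y axis). Filled symbols have an adjusted p under 0.05; among mitotic kinesins they number 2 with all arrays and 7 without that array.

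Genes that work beside the mitotic kinesins on the spindle were also higher. Of 25 spindle partners, 10 rose and 0 fell (40% of the list, against 20.4% of all genes). In limma 19 were higher and 0 lower at an unadjusted p under 0.05, where 4903 of 13731 genes passed in either direction. A higher mean in Rb deleted cells was seen for 24, and the median difference was 0.27. Without Rb intact 1, 19 rose, where 19.1% of all genes did. Only Cdca8 and Aurka, 2 of the list, rose with slide as a block, where 1.46% of all genes did, and the median was 0.30. That fit rests on the contrast within the first slide, with a lone Rb deleted array, so the first slide alone gave the same median by design. Cdca8 (borealin of the chromosomal passenger complex) read 3.33, 3.36 and 3.34 in Rb deleted cultures, against 2.87, 2.89 and 2.92 in Rb intact cultures, a rise of 0.45 ± 0.05 (SE, limma adjusted p = 0.00213). Aurka, the kinase of the spindle poles, rose by 0.42 ± 0.05 (SE, limma adjusted p = 0.0026). The checkpoint kinase gene Bub1b rose by 0.42 and the spindle gene Ckap2l by 0.33, and both lost their call with slide as a block (limma adjusted p = 0.0904 and 0.137). Cenpe, a kinetochore kinesin that carries no Kif symbol, read 2.72, 2.78 and 2.81 in Rb deleted cultures, against 2.36, 2.65 and 2.58 in Rb intact cultures. Its groups did not overlap, and its difference of 0.24 ± 0.08 (SE, limma adjusted p = 0.0995) did not pass. The summed signal of the 25 partners, relative to the 75th percentile, ranged from 158.5 to 160.5 in Rb deleted and from 135.6 to 138.3 in Rb intact cultures. That of the 11 mitotic kinesins ranged from 21.3 to 22.5 in Rb deleted and from 18.2 to 19.2 in Rb intact cultures. The partners' sum was apart between the groups, also without its brightest member Birc5 (138.5 to 140.0 in Rb deleted and 116.7 to 120.3 in Rb intact cultures). The kinesins' sum leaned on Kif22, and without it the groups overlapped (12.8 to 13.7 in Rb deleted and 11.4 to 13.0 in Rb intact cultures). The share of cells in division was not measured.

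Among 22 genes for factors that act on mitotic promoters, 4 rose (Mybl2, E2f2, Rbl1 and E2f7) and Rb1 fell (22.7% of the list, near the 20.4% of all genes). Rb1 alone passed in limma with slide as a block, at adjusted p of 0.124 for Mybl2, 0.152 for E2f2, 0.208 for Rbl1 and 0.231 for E2f7. Without Rb intact 1, 8 of the 22 rose, where 19.1% of all genes did. Mybl2, which encodes B-Myb, read 2.29, 2.23 and 2.22 in Rb deleted cultures, against 1.48, 1.82 and 1.82 in Rb intact cultures, and rose by 0.54 ± 0.10 (SE, limma adjusted p = 0.0158). E2f2, of the activating E2F factors, rose by 0.69 ± 0.13 (SE, limma adjusted p = 0.0164). Rbl1, which encodes p107, rose by 0.31. Foxm1 read 0.89, 0.90 and 0.94 in Rb deleted cultures, against 0.03, 0.76 and 0.73 in Rb intact cultures. Its groups did not overlap, Rb intact 1 was far below its replicates, and the difference of 0.40 ± 0.20 (SE, limma adjusted p = 0.2) did not pass.

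Transport kinesins moved in both directions. Of 16 tested, 2 rose (Kif5c and Kif3c) and 3 fell (Kifc2, Kif5a and Kif21a), 31.2% of the list, against 20.4% of all genes. The median difference was 0.01, equal to that of all genes, and 8 of 16 means were higher in Rb deleted cells. The groups did not overlap for 7 genes, 4 higher and 3 lower, against 45.2% of all genes in either direction and 21.5% lower. Without Rb intact 1, 3 rose and 4 fell, where 37.1% of all genes passed and 18.1% fell. With slide as a block 1 rose (Kif5c) and 1 fell (Kifc2), where 4.89% of all genes passed and 3.43% fell. The 17th listed gene, Kif13b, was well above background on 0 of 3 Rb deleted and 1 of 3 Rb intact arrays and was not tested.

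The heavy chains of conventional kinesin, which carries many cargoes with the aid of light chains, differed among themselves. Kif5c, a form enriched in neurons, read -1.60, -1.66 and -1.69 in Rb deleted cultures, against -2.05, -2.06 and -2.08 in Rb intact cultures. The Rb intact values were nearly equal and all lower. Kif5c rose 1.33-fold, by 0.41 ± 0.05 (SE, limma adjusted p = 0.0038), and by 0.46 with slide as a block (adjusted p = 0.0381). Kif5a, another form of neurons, read -4.96, -5.17 and -4.83 in Rb deleted cultures, against -4.62, -4.33 and -4.34 in Rb intact cultures, as the mean of 10 spots per array. Every Rb deleted value was lower, and Kif5a fell by 0.56 ± 0.12 (SE, limma adjusted p = 0.0227), or 1.47-fold. Its call was lost with slide as a block (adjusted p = 0.202) and without Rb intact 2, Rb intact 3, Rb deleted 1 or Rb deleted 2 (adjusted p from 0.0708 to 0.0771). Its second probe was not well above background on any array. Kif5b, the form found in most cell types, read -0.41, -0.61 and -0.59 in Rb deleted cultures, against -0.18, -0.49 and -0.55 in Rb intact cultures. The groups overlapped, and the difference was -0.13 ± 0.11 (SE, limma adjusted p = 0.447).

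The kinesin-2 motors, which drive transport in cilia and of vesicles, were level or slightly higher. Kif3a, their shared subunit, read 1.16, 1.15 and 1.18 in Rb deleted cultures, against 1.07, 1.11 and 1.06 in Rb intact cultures. The groups did not overlap, but the fold of 1.06 (interval 0.976 to 1.15) did not pass (limma adjusted p = 0.275). Kif3b, its usual partner, had a fold of 1.02 with an interval from 0.909 to 1.14 (limma adjusted p = 0.819). Kif3c, an alternative partner known mainly from neurons, read -1.18, -1.22 and -1.29 in Rb deleted cultures, against -1.52, -1.47 and -1.47 in Rb intact cultures. Kif3c rose 1.19-fold, by 0.25 ± 0.05 (SE, limma adjusted p = 0.0227). With slide as a block its adjusted p was 0.114, and leaving out any single array other than Rb intact 1 gave adjusted p from 0.0603 to 0.103. Kif17, a motor of dendrites and cilia, read -3.59, -3.47 and -3.32 in Rb deleted cultures, against -4.73, -3.61 and -3.51 in Rb intact cultures. Its difference of 0.49 ± 0.32 (SE, limma adjusted p = 0.321) stood beside a low value of Rb intact 1, and was 0.10 without that array.

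The minus-end motors of the list pointed apart. Kifc2, known from dendritic and axonal transport in mouse neurons, read -3.31, -3.35 and -3.24 in Rb deleted cultures, against -2.65, -2.70 and -2.53 in Rb intact cultures. The gap was wide beside the spread in either group. Kifc2 fell 1.60-fold, by 0.68 ± 0.07 (SE, limma adjusted p = 0.00166), and with slide as a block by 0.69 (adjusted p = 0.032). Kifc3, which works at epithelial junctions and in apical transport, read -0.29, -0.36 and -0.30 in Rb deleted cultures, against -0.40, -0.58 and -0.65 in Rb intact cultures. The groups did not overlap, and the difference of 0.23 ± 0.08 (SE, limma adjusted p = 0.0894) did not pass, while without Rb intact 1 it was 0.30 (adjusted p = 0.007).

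Kinesin-3 motors, which carry synaptic vesicle precursors, mitochondria and endosomes, did not pass with their brightest probes. Kif1a, a carrier of synaptic vesicle precursors, read -0.69, -0.51 and -0.35 in Rb deleted cultures, against -0.77, -0.08 and -0.03 in Rb intact cultures. Rb intact 1 was the lowest of all 6 arrays and its replicates the highest. The difference was -0.23 ± 0.21 (SE, limma adjusted p = 0.477), and -0.47 without Rb intact 1 (adjusted p = 0.0227). The dimmer probe of Kif1a, A_55_P2032449, gave -0.64 ± 0.06 (SE, limma adjusted p = 0.00183 with every probe tested on its own). Kif1c, which carries dense core vesicles and integrins, had 3 passing probes that disagreed. Its brightest gave -0.04 ± 0.07 (SE, limma adjusted p = 0.727). With every probe on its own, A_55_P2115732 gave 0.39 ± 0.06 (adjusted p = 0.00747) and A_52_P581390 gave -0.26 ± 0.09 (adjusted p = 0.0996), both in limma. No direction can be given for Kif1c from these probes. Kif1b, a carrier of mitochondria and synaptic vesicle precursors, had a fold of 1.05 with an interval from 0.936 to 1.18. Kif13a, which moves recycling endosomes, had a fold of 0.943 (interval 0.768 to 1.16), and Kif16b, of early endosomes, had a fold of 0.997 (interval 0.896 to 1.11). The groups of all these 3 genes overlapped.

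Kif21a and Kif21b slow microtubule growth at the cell edge or in neurons. Kif21a read -1.08, -1.16 and -1.12 in Rb deleted cultures, against -0.98, -0.84 and -0.84 in Rb intact cultures. Kif21a fell 1.18-fold, by 0.24 ± 0.06 (SE, limma adjusted p = 0.0453). It lay just inside the threshold and was lost with slide as a block (adjusted p = 0.34) and without any array other than Rb intact 1 (adjusted p from 0.0967 to 0.169). Kif21b overlapped between groups, with a fold of 1.07 and an interval from 0.869 to 1.32 (limma adjusted p = 0.598).

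Several of the transport kinesins are best known from neurons, so neuronal and neuroendocrine markers were read beside them. Of 7 listed, 5 were tested, and Chga and Rbfox3 were not well above background on any array. Map2, a dendritic microtubule protein, read -3.25, -3.24 and -3.25 in Rb deleted cultures, against -4.52, -4.33 and -4.48 in Rb intact cultures, and rose by 1.20 ± 0.07 (SE, limma adjusted p = 0.000282). Stmn2, a tubulin-binding protein of growing axons, was well above background on 0 of 3 Rb deleted and 3 of 3 Rb intact arrays. It was at least 2.95-fold lower in Rb deleted cells. It passed the filter through the Rb intact group alone, so no p-value is given. Map2 and Stmn2 thus moved in opposite directions, but of the 5 tested only Map2 had a higher mean in Rb deleted cells. The median difference of the 5 was -0.21. Tubb3, Snap25 and Syp differed by -0.56, -0.21 and -0.10, none past the threshold. Without Rb intact 1, Tubb3 passed with a difference of -0.33 (limma adjusted p = 0.00909). The summed signal of the 5 markers ranged from 3.87 to 4.71 in Rb deleted and from 3.13 to 6.18 in Rb intact cultures, which overlapped. That sum leaned on Snap25, whose level was 0.31 in Rb intact 1, against 2.06 and 2.03 in its replicates. In Rb deleted cultures Snap25 read 1.45, 1.17 and 1.14, so the overlap of the sums came with Rb intact 1. Without Snap25 the sums ranged from 1.66 to 1.98 in Rb deleted and from 1.88 to 2.00 in Rb intact cultures. Their part in the kinesin differences was not tested.

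Adaptors, light chains and other cargo partners were mostly level or slightly lower in Rb deleted cells. Of 20 tested, 0 rose and 2 fell in limma, with a median difference of -0.07. That is 10% of the list, near the 10.8% of all genes that fell, while 8 genes did not overlap and were lower, against 21.5% of all genes. At an unadjusted p under 0.05 in limma 0 were higher and 6 lower, where 4903 of 13731 genes passed in either direction. The genes that fell were Mapk8ip1, the scaffold JIP1 that links cargo to kinesin-1, by 0.25 ± 0.06 (SE, limma adjusted p = 0.0269), and Arl8a, a small GTPase that couples lysosomes to kinesins, by 0.23 ± 0.06 (SE, limma adjusted p = 0.0443). Its relative Arl8b differed by -0.28 and the light chain gene Klc4 by -0.21, neither past the threshold. Of 20 tested genes of dynein, the opposing motor, and of its activator dynactin, 0 rose and 1 fell, the dynactin gene Dctn6 (by 0.19). That is 5% of the list, against 10.8% of all genes that fell. At an unadjusted p under 0.05 in limma 1 was higher and 7 lower, beside the same 4903 of 13731 genes. The dynein list's median difference was -0.07 too, and 9 of its genes did not overlap and were lower, against 21.5% of all genes. Of 14 tubulin genes 1 rose, Tubg1, the gamma-tubulin that nucleates microtubules (by 0.25), and 0 fell. That is 7.14% of the list, against 9.66% of all genes that rose. At an unadjusted p under 0.05 in limma 2 were higher and 1 lower. The cargo and dynein medians lay below that of all genes by about as much as the mitotic kinesins' median lay above it, and the tubulin median was 0.04. In limma 0 genes of these 3 lists passed with slide as a block, with adjusted p of 0.195 for Mapk8ip1, 0.391 for Arl8a, 0.296 for Dctn6 and 0.127 for Tubg1. With that block 1 cargo, 0 dynein and 1 tubulin gene had an unadjusted p under 0.05, where 2742 of 13731 genes did. Without Rb intact 1, 2 cargo genes rose and 3 fell, 5 dynein genes fell, and 2 tubulin genes rose and 2 fell. Without that array 19.1% of all genes rose and 18.1% fell.

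**Figure D4:**
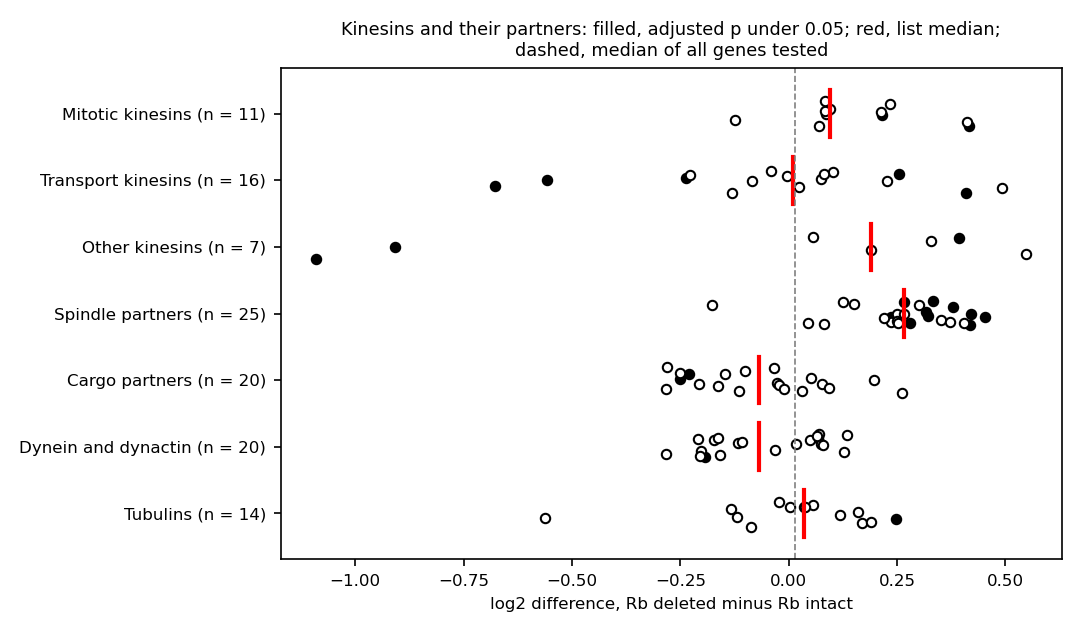
Difference, Rb deleted minus Rb intact (x axis, log2), of each tested gene in the kinesin and partner lists (y axis). Red bars are list medians and the dashed line is the median of all genes, 0.01; the spindle partners have a median of 0.27 and the mitotic kinesins of 0.09.

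The other kinesins held the largest differences of the family. Kif26a, a kinesin without motor activity that restrains growth factor signalling in mouse enteric neurons, read -4.12, -4.13 and -4.04 in Rb deleted cultures, against -2.95, -3.09 and -2.99 in Rb intact cultures. The groups were about 1 log2 unit apart, and both lay above background on all arrays with this probe. A second probe of Kif26a was not well above background on any array. Kif26a fell 2.13-fold, by 1.09 ± 0.06 (SE, limma adjusted p = 0.000294). Kif26b, its paralog needed for mouse kidney development, read -4.22, -3.76 and -4.11 in Rb deleted cultures, against -3.07, -3.12 and -3.17 in Rb intact cultures. Kif26b fell 1.88-fold, by 0.91 ± 0.12 (SE, limma adjusted p = 0.00471). With slide as a block both remained past the threshold in limma, Kif26a at an adjusted p of 0.00938 and Kif26b at 0.0247. Their differences were then -1.12 and -1.10, and the first slide alone gave the same values by design. They were the 2 kinesins called in all 21 alternative settings run, which include the first slide with its lone Rb deleted array.

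Kif24, which trims centriolar microtubules and holds back primary cilia, read -2.34, -2.35 and -2.37 in Rb deleted cultures, against -2.98, -2.63 and -2.63 in Rb intact cultures. Kif24 rose 1.31-fold, by 0.39 ± 0.10 (SE, limma adjusted p = 0.0454). Its adjusted p was 0.256 with slide as a block and from 0.0629 to 0.141 without any array other than Rb intact 1. Kifc5b, a paralog of Kifc1, read -3.78, -3.69 and -3.80 in Rb deleted cultures, against -4.63, -4.31 and -3.98 in Rb intact cultures. The groups did not overlap, and the difference of 0.55 ± 0.16 (SE, limma adjusted p = 0.0572) fell short. Signal shared between Kifc1 and Kifc5b transcripts was not tested, so both are uncertain. Kif7, a ciliary regulator of hedgehog signalling, did not overlap between groups and differed by 0.19 ± 0.08 (SE, limma adjusted p = 0.151). Kif2a, a depolymerase of spindle poles, had a fold of 1.04 with an interval from 0.947 to 1.14. Kif19a, which limits the length of motile cilia in mouse, read -3.51, -3.37 and -3.36 in Rb deleted cultures, against -4.57, -3.34 and -3.32 in Rb intact cultures. Its difference of 0.33 ± 0.34 (SE, limma adjusted p = 0.517) stood beside a low value of Rb intact 1, and was -0.09 without that array.

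Kif12, Kif27, Kif2b, Kif4-ps and Kif6 were not well above background on any array. Kif9, with 4 probes, reached this level on at most 1 Rb deleted and 2 Rb intact arrays. For these 6 genes and Kif13b no comparison was made. Over the whole family, 5 of 34 tested kinesins rose and 5 fell (29.4%, against 20.4% of all genes), 23 had a higher mean in Rb deleted cells, and 16 of 34 did not overlap between groups, near the 45.2% of all genes.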

How the data were processed

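Total RNA of 6 cultures, 3 Rb deleted and 3 Rb intact, was labelled with Cy3 and read on 6 arrays of 1 colour, per the labels' protocols. The deposited scanner files hold intensity values, background-subtracted by Agilent Feature Extraction 11.0.1.1 per the file headers (10.7.3.1 per the submitters' processing notes), and flags coded 0 or 1 (unit: other). The authors also deposited a table of log2 values for 22164 probes, whose scale and centring are not stated. Each of its columns was the scanner log2 value minus a constant, within 0.01 for at least 99.95% of probes, with column medians from -0.52 to -0.49.

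Here the 43020 non-control spots were used without 1024 flagged outlier values and averaged to 39429 probes. The log2 intensity was shifted by each array's 75th percentile. A probe passed (23051 did) when the scanner called it well above background on every array of 1 group or more. Probes were named through their RefSeq accession in a table of assembly GRCm38.p6 (27427 probes), and a gene was read by its brightest passing probe (13731 genes). The array was designed on build mm9, so coordinates belong to the RefSeq promoters alone. A bound of a fold uses the lowest signal well above background on each array.

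The groups were tested in R 4.3.3 with the lmFit and eBayes functions of limma 3.58.1, without a block, and p-values were adjusted over all tested genes by Benjamini-Hochberg. Intervals are 95% intervals of that fit, and p-values measure the spread between these 6 samples. The fit was tested on simulated data. Members, gene lists and the rule for named genes were chosen with earlier results of these data known. The rule took every tested kinesin, Rb1, Cenpe and up to 4 members with the smallest p of each partner list. Epithelial, stromal and neuronal markers, E2f7 and Foxm1 were named beside it, after their values were seen. Some listed items are not reported here. Leukocyte, endothelial and multiciliated cell markers were also listed, and 0 of their 3, 3 and 1 tested genes passed the threshold. Alternatives covered scaling, background correction, the filter, probe choice, weights of arrays, the variance model, blocks for slide and for replicate number, the threshold, the deposited table and leaving out each array. The number of arrays limits the precision.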

Additional observations from a re-analysis of the deposited data

How the results depend on the processing

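With all arrays, 2 mitotic kinesins rose and 0 fell, 2 transport kinesins rose and 3 fell, and the medians were 0.09 and 0.01. No alternative gave a mitotic kinesin that fell. The mitotic count was 1 with the 75th percentile over probes above background on all arrays, a median shift, normexp on median spot signal, no filter on dim probes, replicate number as a block and a threshold of 0.01. The transport count that rose was 1 with a median shift, no filter, slide as a block, the replicate block and a threshold of 0.01, and the count that fell was 1 with no filter, slide as a block and the threshold of 0.01. With slide as a block 0 mitotic kinesins passed. Within the first slide the Rb deleted group held a lone array, so differences and medians are given, and its calls enter only the counts over 21 settings. Both slide fits rest on the same contrast and gave medians of 0.18 and -0.0513. Array weights gave 7 mitotic kinesins and a median of 0.23, where 23.4% of all genes rose, against 9.66% without weights. The mitotic median was 0.15 with every probe on its own. The transport median was -0.0274 with normexp, 0.0529 with the dimmest probe and 0.0571 over all kinesins outside the mitotic list, of which 5 fell. Leaving out 1 array gave 1 to 7 mitotic kinesins that rose, 1 to 3 transport kinesins that rose and 1 to 4 that fell, with medians from 0.0702 to 0.236 and from -0.00773 to 0.0419. The highest counts came without Rb intact 1. Same-numbered samples did not deviate together (correlations of -0.03, -0.05 and 0.02). With 3 arrays per group such values cannot show whether cultures were paired, and the series design names no pairing. Of 21 settings, Kif2c and Kif21a lost their call in 12 each, Kif3c and Kif24 in 10, Kif5a in 7, Kif18b in 2, Kif5c and Kifc2 in 1 and Kif26a and Kif26b in 0. Kif1c, not called with its brightest probe, read 0.39 with its dimmest (adjusted p = 0.008, limma), the only reversal, and 10 uncalled kinesins changed sign in 1 to 5 settings without passing. The causes were not tested.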
